A study of Mus musculus with 6 samples.

Results

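B cells were followed in the tibialis anterior muscle (TAM) of control and hypothyroid mice. They were selected on their transcripts, as cells with at least 2 of *Cd79a*, *Cd79b* and *Ms4a1* above 0 and with *Cd3e*, *Csf1r* and *Pdgfra* at 0. By this rule 143 of 11207 cells were B cells, a share of 1.28% (95% Clopper-Pearson interval 1.08 to 1.5). For comparison, similar rules marked 503 T cells, 970 monocytes and macrophages and 5146 fibro-adipogenic progenitors (FAPs). *Cd79a* and *Cd79b* encode the signalling chains of the B cell receptor and *Ms4a1* encodes CD20. In the gene table of the files, on GRCm39, *Cd79a* spans chr7:24596806-24601622, *Cd79b* chr11:106202167-106205588, *Ms4a1* chr19:11227039-11243605 and *Cd69*, described below, chr6:129244288-129252399. The selection used these measured values, so their levels describe the cells and are not a finding.

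The study asked how a lack of thyroid hormone alters muscle repair. All mice were males of 3 to 5 months on a B6;129 background with the Gt(ROSA)26Sor<tm1(Fucci2aR)Jkn allele, a Cre-dependent cell cycle reporter, and the study's methods describe them as negative for Cre. Hypothyroid mice ate a low iodine diet with 0.15% PTU (propylthiouracil, a drug that blocks thyroid hormone synthesis), control mice a control diet. The methods start the diet 3 weeks before injury. TAM was taken uninjured (day 0) or at 5 or 14 days after injury (dpi) with cardiotoxin (CTX, 50 µg/ml), a snake toxin that destroys muscle fibers. Each of the 6 libraries held the dissociated cells of 3 pooled mice, so that there was no replicate, no test between groups and no way to tell a mouse from a condition. The labels give the day as the batch, and day and batch cannot be told apart.

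B cells arise in the bone marrow and recirculate through blood, lymph and lymphoid organs. Each carries an antigen receptor built from immunoglobulin heavy chains and kappa or lambda light chains, and mature naive cells carry it as IgM together with IgD. They present antigen to helper T cells on major histocompatibility complex (MHC) class II, answer interferon with a set of antiviral genes, and may become germinal centre or plasma cells. Resting skeletal muscle holds few of them.

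Levels are counts of unique molecular identifiers (UMIs, each standing for a captured RNA molecule) summed over the B cells of a library and given per 1000000 UMIs of those cells (CPM) with an exact Poisson 95% interval. Ratios carry an exact binomial 95% interval. All intervals cover counting error only, not the spread between mice. A count of 0 allows up to 3 UMIs, which came to 29.4 CPM in uninjured control B cells and 210 CPM in hypothyroid B cells at 14 dpi. Ratios are given only where both libraries held at least 20 B cells. The uninjured hypothyroid library with 19 and the 14 dpi hypothyroid library with 5 are therefore given by their values.

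The deposited tables hold runs of cell barcodes from more than 1 sample, and 2 of the 6 tables hold a run that copies cells of another table. Only the first run of each table was used, and its condition was taken from the label and could not be checked. The first runs shared 12 barcodes, of which 0 had the same values. The cells had a median of 3634 to 8055 UMIs per library, and B cells had 1305.5 to 3021. Of the 143 B cells, 7 also held at least 10 UMIs of markers of other cell types and are called mixed below. They were 1 of 33 uninjured control cells, 2 of 42 control cells at 5 dpi and 4 of 20 control cells at 14 dpi. The 4 at 14 dpi held 58.0% of the B cell UMIs of that library, and the 2 largest, with 43.2%, had 0 UMIs of immunoglobulin genes, *Cd74* and *Ptprc*, which goes against the label of B cells, so its levels are also given without them.

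The promoters of 3 interferon-induced genes whose transcripts were far more frequent in B cells at 5 dpi than in uninjured muscle, and of 2 MHC class II genes, are shown because the results turn on these gene groups. Bases are from the RefSeq table of GRCm38.p6, 200 before each gene's start, written 5′ to 3′ on the strand of the gene. Capitals mark GAAA, any 2 bases and GAAA on either strand in *Ifit3*, *Slfn5* and *Irgm1*, the core of the interferon-stimulated response element, and CTGATTGG in *H2-Aa* and *H2-Eb1*, the Y box of class II promoters. *Ifit3* is at chr19:34583329-34583528 on the plus strand, *Slfn5* at chr11:82951902-82952101 on the plus strand, *Irgm1* at chr11:48871421-48871620 on the minus strand, *H2-Aa* at chr17:34287824-34288023 on the minus strand and *H2-Eb1* at chr17:34305667-34305866 on the plus strand.
Ifit3: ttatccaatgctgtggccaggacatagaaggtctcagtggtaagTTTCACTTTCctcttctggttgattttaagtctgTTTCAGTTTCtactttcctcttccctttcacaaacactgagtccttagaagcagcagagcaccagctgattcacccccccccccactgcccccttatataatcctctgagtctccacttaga
Slfn5: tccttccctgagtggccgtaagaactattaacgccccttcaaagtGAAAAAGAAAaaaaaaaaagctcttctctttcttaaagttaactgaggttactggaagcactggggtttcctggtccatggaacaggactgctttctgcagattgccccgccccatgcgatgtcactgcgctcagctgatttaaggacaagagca
Irgm1: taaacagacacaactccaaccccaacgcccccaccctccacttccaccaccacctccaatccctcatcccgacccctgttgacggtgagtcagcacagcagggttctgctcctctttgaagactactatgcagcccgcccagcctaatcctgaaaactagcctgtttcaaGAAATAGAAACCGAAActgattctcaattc
H2-Aa: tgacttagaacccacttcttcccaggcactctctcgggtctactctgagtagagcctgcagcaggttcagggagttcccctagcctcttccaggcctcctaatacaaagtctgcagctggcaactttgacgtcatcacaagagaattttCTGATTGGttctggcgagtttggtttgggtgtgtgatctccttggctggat
H2-Eb1: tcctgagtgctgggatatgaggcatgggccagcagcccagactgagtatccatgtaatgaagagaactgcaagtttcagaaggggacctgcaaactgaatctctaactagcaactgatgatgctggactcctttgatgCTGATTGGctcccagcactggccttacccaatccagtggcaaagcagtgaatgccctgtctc

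The first motif was in 2.98% of all 32851 promoters of the table and CTGATTGG in 3.83%, both strands searched over the 250 bases before the start. Among the 12 genes of the interferon list, 8 were in the table and 5 held the first motif (*Ifit1*, *Ifit3*, *Isg15*, *Rsad2* and *Bst2*). Of the 10 genes with the largest ratios of control 5 dpi to uninjured B cells, 9 were in the table. Only 4 of these held the first motif, and *Ifi47* and *Ifi209*, both interferon-induced, did not. Of the 10 class II genes 7 were in the table, and *H2-Aa*, *H2-Eb1* and *H2-Oa* held CTGATTGG. A match of letters is a description of the sequence and does not show that a factor binds there.

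Of all cells, B cells were a lower share at each later time in both diets, although in control muscle the intervals of the first 2 times overlapped. In control muscle there were 33 of 1152 cells uninjured, 2.86% (1.98 to 4.0), 42 of 2428 at 5 dpi, 1.73% (1.25 to 2.33), and 20 of 3294 at 14 dpi, 0.607% (0.371 to 0.936). In hypothyroid muscle there were 19 of 528 uninjured, 3.6% (2.18 to 5.56), 24 of 2155 at 5 dpi, 1.11% (0.715 to 1.65), and 5 of 1650 at 14 dpi, 0.303% (0.0985 to 0.706). On each day the intervals of the 2 diets overlapped. Over both diets the share was 3.10% uninjured (52 of 1680), 1.44% at 5 dpi (66 of 4583) and 0.506% at 14 dpi (25 of 4944), and these 3 intervals did not overlap. A share depends on how many other cells were recovered, so fewer B cells and more cells of other types cannot be told apart. *Ptprc* encodes the pan-leukocyte marker CD45. Among cells with a *Ptprc* UMI the control shares were 49.2% uninjured (31 of 63), 1.64% at 5 dpi (25 of 1522) and 5.12% at 14 dpi (11 of 215). The hypothyroid diet gave 42.4% (14 of 33), 2.31% (20 of 865) and 0.38% (1 of 263). Many B cells had no *Ptprc* UMI, which was found in 25 of 42 control ones at 5 dpi and 1 of 5 hypothyroid ones at 14 dpi. In control the order of the later times turned among *Ptprc* cells. It also turned in hypothyroid muscle with all 3 markers required, with 0.232% at 5 dpi and 0.303% at 14 dpi.

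**Figure D1:**
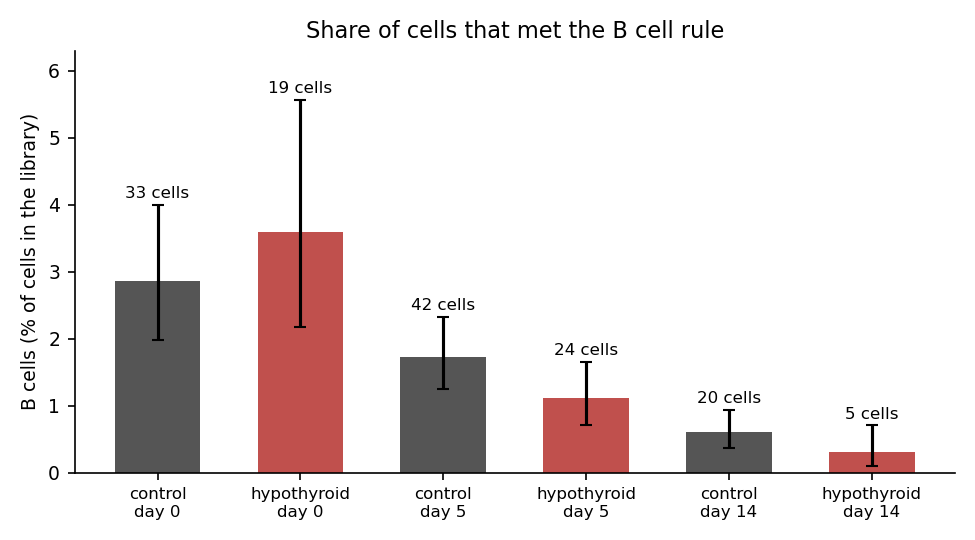
Share of B cells among all cells of each library, in percent, as bars from 0 with 95% Clopper-Pearson intervals that cover counting error only. The bars go down from 2.86% through 1.73% to 0.607% in control muscle and from 3.6% through 1.11% to 0.303% in hypothyroid muscle.

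The rule left cells near its border. Exactly 2 of the 3 markers were found in 79 of the 143 cells and all 3 in 64. Just outside, 153 cells held 1 marker, and 67 of these (43.8%) had a UMI of *Ighm*, *Ighd* or *Igkc*, against 76 of 79 (96.2%) with exactly 2 markers. Another 4 cells had at least 2 markers but held a UMI of an excluded gene. Cells of 1 marker were most numerous at 5 dpi, with 61 beside 24 B cells in the hypothyroid library and 40 beside 42 in the control library, and at 14 dpi they were 13 beside 5 and 28 beside 20.

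Most of these cells also held B cell transcripts that the rule did not use. *Ighm*, the heavy chain of IgM, was found in 132 of 143 cells, *Igkc*, the constant part of the kappa chain, in 134, *Cd74*, the invariant chain of MHC class II, in 140, and *H2-Aa*, a class II chain, in 133. *Ebf1*, a transcription factor of early B cells that FAPs also express, was found in 133 cells and *Pax5*, which maintains B cell identity, in 49. Of the markers of other cells, *Cd3d*, *Cd3g* and *S100a8* were at 0 in all 143 cells, *Trac* was found in 3, *Lyz2* in 5, *C1qa* in 2, *Nkg7* in 1, *Pecam1* in 22 and *Dcn* in 24. The share of T cells with a UMI of *Ighm* was between 5.8% and 26.7% over the libraries, at a median depth of 2614.5 to 5348 UMIs, while in B cells it was between 79.2% and 100%.

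The mixed cells were of several kinds. At 14 dpi in control muscle the largest held 22810 UMIs, 42 of them of the endothelial gene *Cdh5*, and another of 15433 UMIs held 239 of *Ccl21a*, a chemokine of lymphatic and stromal cells, and 67 of *Dcn*, a matrix gene of FAPs. A cell of 9488 UMIs held 20 of *Ighm* and 54 of *Iglc1* beside endothelial transcripts. At 5 dpi a control cell of 6487 UMIs held 10 of *Siglech*, a marker of plasmacytoid dendritic cells, and 15 of *Cd8a*, and another held 11 of *Gzma*, a granzyme of cytotoxic cells. Muscle transcripts were found in many B cells as well. *Acta1*, the skeletal actin of fibers, had a UMI in 90.9%, 50% and 95% of control B cells uninjured, at 5 and at 14 dpi, and in 100%, 20.8% and 100% of hypothyroid ones. The summed T cell list reached 0 to 365 CPM over the libraries, that of monocytes and macrophages 0 to 177 CPM, of FAPs 51.7 to 2249 CPM, of endothelial cells 17.2 to 2182 CPM and of muscle 580 to 12819 CPM. Their part in the results was not tested.

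Heavy chain transcripts were those of IgM and IgD, while IgG and IgA genes were not analysed here. Both *Ighm* and *Ighd*, the heavy chain of IgD, were found in 83 of the 143 cells, *Ighm* alone in 49, *Ighd* alone in 3 and neither in 8. Kappa UMIs outnumbered lambda UMIs (*Iglc1*, *Iglc2* and *Iglc3*) in 126 cells and the reverse held in 11. Many cells held a few UMIs of both, 91 in all, but only 5 cells had at least 10 of each, of which 1 was mixed. Lambda chains made up 20% of light chain UMIs in uninjured control B cells, 11.7% at 5 dpi and 31.6% at 14 dpi, or 21.5% there without the mixed cells. In hypothyroid B cells the values were 6.03%, 18.6% and 9.09%. A few cells set these shares, since 10 cells had at least 10 lambda UMIs and the 3 constant genes are similar enough for reads to be split between them.

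**Figure D2:**
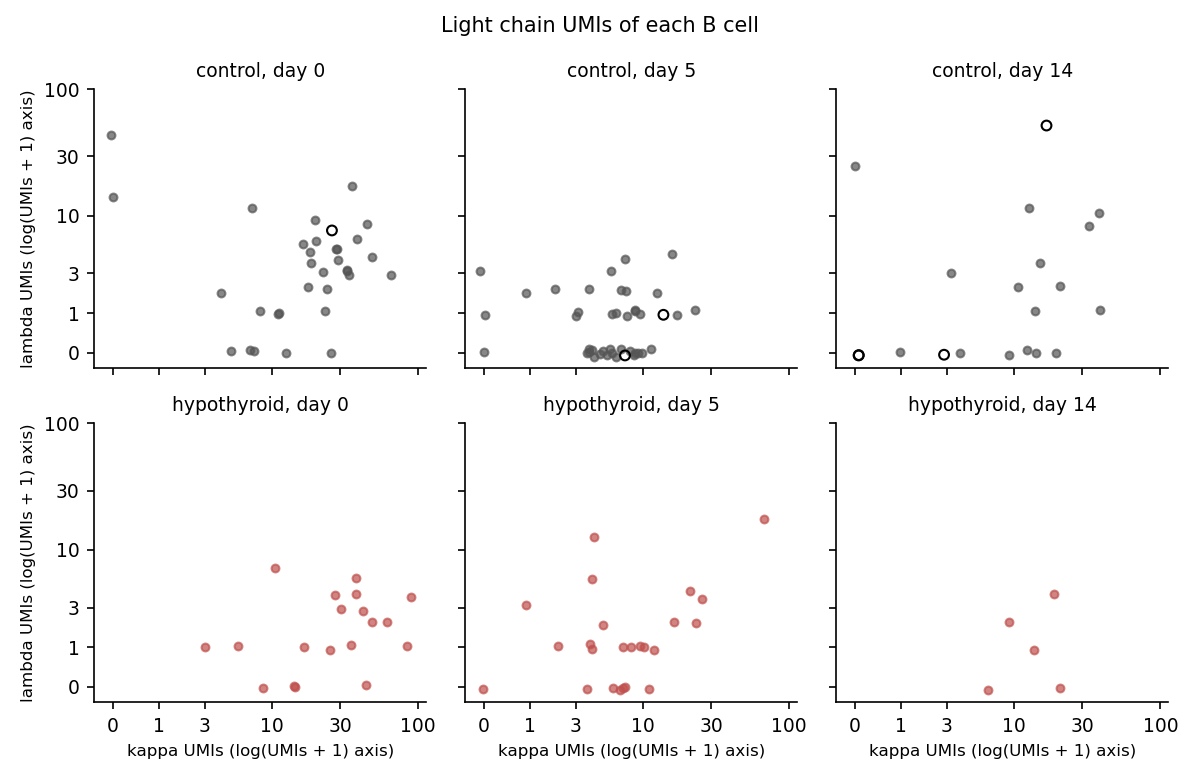
Kappa UMIs (horizontal) and lambda UMIs (vertical) of each of the 143 B cells on log axes of UMIs + 1, with a small random shift so that points do not hide each other and open black circles for the 7 mixed cells. In 126 cells kappa UMIs are more numerous, and 11 hold more lambda than kappa UMIs.

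Control B cells at 5 dpi were compared with those of uninjured control muscle over the 1525 genes with at least 20 UMIs in both pools together. At least 2-fold higher at 5 dpi were 245 genes (16.1%), and 144 (9.44%) were at least 2-fold lower. The median ratio over all these genes was 1.12. With means of log2(CPM + 1) over cells the balance turned, to 134 higher and 725 lower. The genes with the largest ratios are given below.

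The interferon-stimulated list, with genes for antiviral proteins, summed to 314 CPM in uninjured control B cells and 1882 CPM at 5 dpi, a ratio of 6.0 (4.05 to 9.14). Most of the UMIs in uninjured control came from the mixed cell there, and without the mixed cells the sums were 140 and 1921 CPM with a ratio of 13.8 (7.72 to 26.7). In control B cells at 14 dpi the sum was 2306 CPM, or 2772 without the mixed cells. Hypothyroid B cells had 86.2 CPM uninjured, 2448 at 5 dpi and 2235 at 14 dpi. All 4 injured libraries thus stood above both uninjured ones. The remaining cells of each library moved as well, from 632 to 2506 and 1110 CPM in control muscle and from 259 to 3338 and 1401 CPM in hypothyroid muscle.

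**Figure D3:**
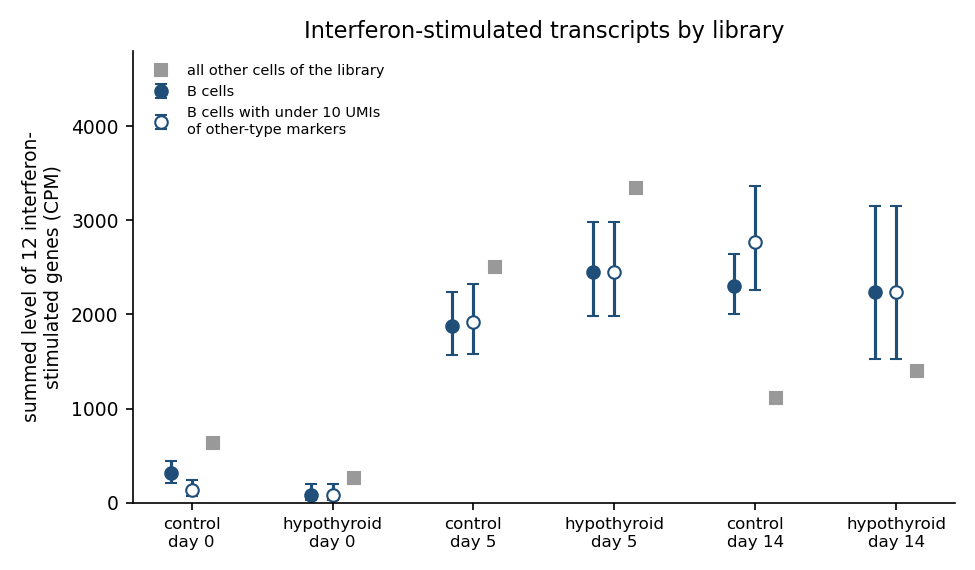
Summed level of the 12 interferon-stimulated genes in CPM by library, with filled points for all B cells, open points for B cells without the mixed ones, grey squares for all other cells and bars for the 95% Poisson interval. B cells of the 4 injured libraries lie between 1882 and 2448 CPM and those of the uninjured ones at 86.2 and 314 CPM.

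The UMIs of the list were spread over cells. At least 1 UMI of the list was found in 11 of 33 uninjured control B cells, 30 of 42 at 5 dpi and 16 of 20 at 14 dpi, and in 4 of 19, 17 of 24 and 5 of 5 hypothyroid ones. With each cell thinned to 1000 UMIs, so that depth was equal, these became 2 of 33, 26 of 35 and 14 of 19 in control and 2 of 18, 14 of 22 and 4 of 5 in hypothyroid muscle. Shallower cells were left out, 7 of them at 5 dpi in control.

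Single genes of the list were absent from uninjured B cells at this depth. *Ifit3*, which helps to block viral RNA translation, had 0 UMIs in uninjured control and hypothyroid B cells, 20 UMIs in control (292 CPM, 178 to 451) and 20 in hypothyroid cells at 5 dpi (505 CPM, 308 to 779), and 11 and 5 UMIs at 14 dpi. At 5 dpi its control level was 9.93-fold that of the 3 UMIs that the uninjured count allows. The lower end of the interval of the ratio was 7.35. *Ifit2*, a relative of *Ifit3*, had 0 and 0 UMIs uninjured, 14 and 15 at 5 dpi and 12 and 0 at 14 dpi. *Bst2*, or tetherin, which holds budding virus at the cell surface, had a ratio of 7.82 at 5 dpi to uninjured control. Over all libraries 27 of the 53 *Bst2* UMIs of B cells lay outside the mixed cells, and plasmacytoid dendritic cells also express this gene. *Isg15*, a ubiquitin-like modifier, had a ratio of 1.21, but its 16 UMIs in uninjured control lay in 1 cell. *Ifi27l2a* was high in control B cells at 14 dpi with 62 UMIs (701 CPM), against 58.4 CPM at 5 dpi, but with all columns the ratio of 14 to 5 dpi was 0.898.

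Other genes known to be induced by interferon stood among the 10 with the largest ratios at 5 dpi. *Slfn5*, of the Schlafen family, had 0 UMIs in both uninjured libraries, 35 in control B cells at 5 dpi (511 CPM) and 20 in hypothyroid ones (505 CPM). The control level was 17.4-fold the floor, and the lower end of the interval of the ratio was 13.4. *Ifi47*, an interferon-induced GTPase, went from 1 to 27 UMIs, a ratio of 40.2 (6.63 to 1646). *Irgm1*, a GTPase of the same group that guards against intracellular pathogens, went from 1 to 21 UMIs, a ratio of 31.3 (5.03 to 1293). *Trim30a*, which dampens innate signalling, had a ratio of 16.4 (6.61 to 52.4) and *Ifi209*, of the DNA-sensing p200 family, 7.54 (4.30 to 14.1). The remaining genes of the 10 were *Fchsd2* with a ratio of 8.63, the lysosomal protease *Lgmn* with 9.43, and *Sbno2* with 15.6. In all other cells *Lgmn* went from 18.9 to 312 CPM, *Ifi209* from 1.72 to 200 CPM and *Ifi47* from 12.2 to 119 CPM. *Irgm1* stayed level there, with 74.8 and 75.0 CPM. The part of RNA from other cells in these ratios was not tested.

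**Figure D4:**
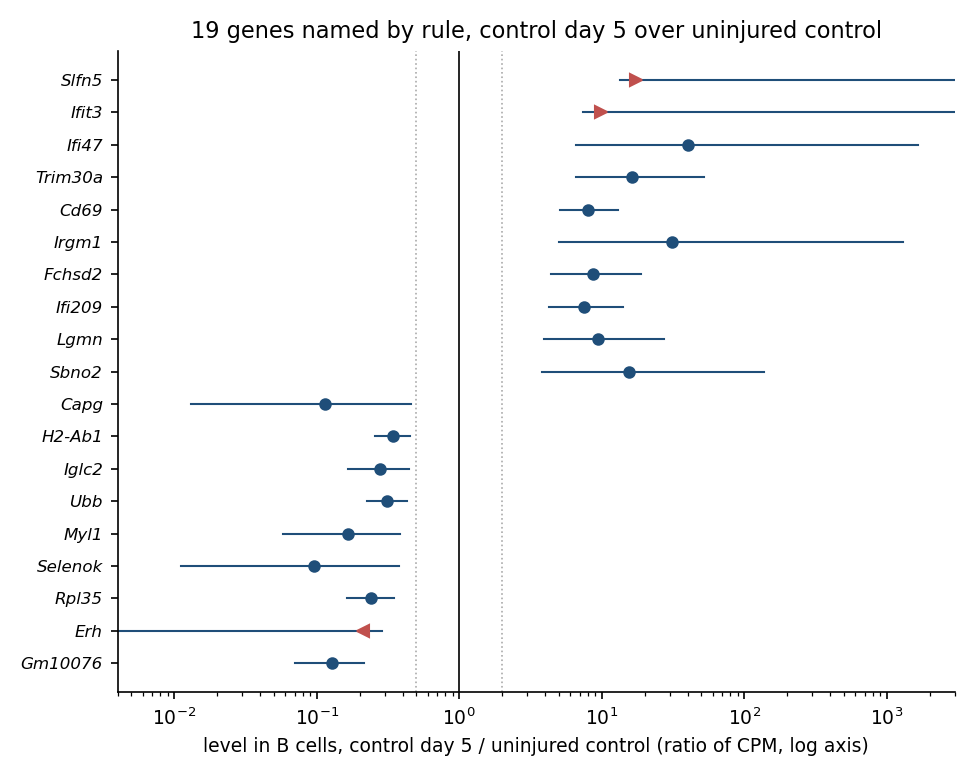
Ratio of control B cells at 5 dpi to uninjured control B cells on a log axis for 19 genes, those furthest above and furthest below 1, with 95% intervals, and red arrows for a bound against the floor of 3 UMIs. *Cd69*, with the most UMIs among the higher genes, lies at 7.96, and *H2-Ab1* among the lower genes at 0.344.

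*Cd69*, which holds lymphocytes in tissue and is induced early after activation, was the most abundant of the 10 higher genes. It reached 225 CPM (143 to 338) in uninjured control, 1795 CPM (1491 to 2141) at 5 dpi and 226 CPM (138 to 349) at 14 dpi, or 511 CPM at 14 dpi without the mixed cells. Hypothyroid B cells had 190 CPM (94.6 to 339), 555 CPM (348 to 840.5) and 629 CPM (288 to 1193). The ratio of 5 dpi to uninjured control was 7.96 (5.07 to 13), and 31 of 42 cells held a UMI at 5 dpi against 10 of 33. At 1000 UMIs per cell 24 of 35 and 8 of 33 did. All other cells had 1.54 CPM of *Cd69* uninjured and 177 CPM at 5 dpi in control muscle, and 50.5 CPM at 5 dpi in hypothyroid muscle, and the part of RNA from other cells was not tested.

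Of the 19 genes of activation and immediate early response, 10 passed the UMI minimum. At least 2-fold higher were 3 of them, beside 16.1% of all 1525 genes. These were *Cd69*, *Junb* with a ratio of 2.98 and *Myc* with 2.02, the last 2 being transcription factors induced by growth signals. *Dusp2*, a phosphatase that restrains MAP kinases, was lower with a ratio of 0.414. *Cd83*, a costimulatory surface protein, had a ratio of 1.26 and *Cd86*, the ligand of CD28, 0.52. The median of the 10 was 1.45.

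Transcription factors of B cells tended to be higher at 5 dpi. Of 15 genes, 12 passed the minimum, 6 were at least 2-fold higher, 1 was lower, and the median ratio was 1.90. Among all 1525 genes 16.1% were higher and 9.44% lower. *Irf8*, which acts in B cell and myeloid development, had 382 CPM uninjured and 1255 CPM at 5 dpi, a ratio of 3.28 (2.22 to 4.92), while the other cells had 17.3 and 452 CPM. Over all libraries 155 of the 187 *Irf8* UMIs of B cells lay outside the mixed cells. *Bach2*, which holds back plasma cell fate, had a ratio of 3.32, *Pou2af1*, the coactivator of octamer factors, 2.73, *Pou2f2*, the octamer factor Oct-2, 2.29, *Ikzf1*, or Ikaros, 2.23, and *Bcl11a* 2.13. *Klf2*, which keeps lymphocytes quiescent and recirculating, was lower, with 431 CPM uninjured and 131 CPM at 5 dpi, a ratio of 0.305.

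**Figure D5:**
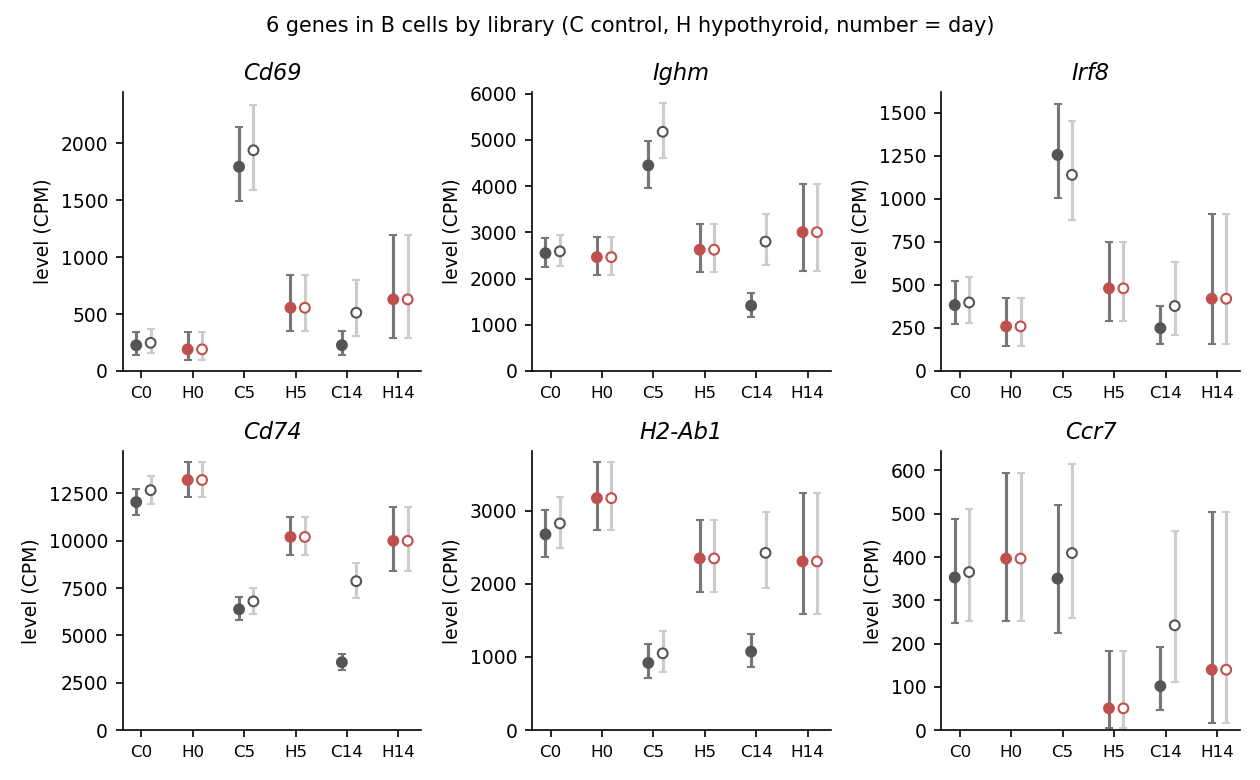
Levels of *Cd69*, *Ighm*, *Irf8*, *Cd74*, *H2-Ab1* and *Ccr7* in B cells of each library in CPM with 95% Poisson intervals, open points leaving out the mixed cells. *Cd69* and *Irf8* are highest in control B cells at 5 dpi, with 1795 and 1255 CPM.

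Receptor genes did not move as a block. *Ighm* was higher at 5 dpi with a ratio of 1.75 (1.47 to 2.07), while *Ighd* had 1.0, *Igkc* 0.591 and *Iglc1* 0.153. The *Iglc1* ratio rests on few cells, as single uninjured control cells held 16, 11 and 10 of its UMIs. The adaptors *Blnk* and *Bank1*, which pass on the receptor signal, had ratios of 3.28 and 2.51. Of the 7 signalling genes that passed the minimum 2 were at least 2-fold higher and 0 lower, beside 16.1% and 9.44% of all genes. *Cd79a* had 0.648, *Cd79b* 0.513 and *Ms4a1* 1.33, although these genes chose the cells. *Cd81*, a partner of the co-receptor, had 0.47.

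MHC class II transcripts were lower in control B cells at 5 dpi. The 10 genes summed to 23481 CPM uninjured and 13014 CPM at 5 dpi, a ratio of 0.554 (0.513 to 0.599). Past the minimum were 7 genes, of which 3 were at least 2-fold lower and 0 higher, beside 9.44% and 16.1% of all genes. *Cd74* had 12034 CPM uninjured and 6376 CPM at 5 dpi, a ratio of 0.530 (0.474 to 0.591). *H2-Ab1*, a beta chain, had 2675 CPM uninjured and 919 CPM at 5 dpi, a ratio of 0.344 (0.257 to 0.453), *H2-Eb1*, another beta chain, a ratio of 0.538, and *H2-Aa*, the alpha chain that pairs with *H2-Ab1*, 0.774. The other cells moved the other way for *H2-Ab1*, with 16.5 CPM uninjured and 729 CPM at 5 dpi. The intervals of *H2-Ab1* and *H2-Aa* did not overlap. The 10 class II genes summed at 14 dpi to 6929 CPM in control B cells, or 15370 CPM without the mixed cells, and 25432, 19278 and 18301 CPM in hypothyroid B cells uninjured, at 5 and at 14 dpi.

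Genes of homing differed singly. Of 8 genes past the minimum, 1 was at least 2-fold lower and 0 higher, beside 9.44% and 16.1% of all 1525 genes. That gene was *Ltb*, a lymphotoxin chain that shapes lymphoid tissue, with a ratio of 0.182. *Cxcr4*, the receptor of CXCL12, had 608 CPM uninjured and 1211 CPM at 5 dpi, a ratio of 1.99, and *Ccr7*, which guides cells into lymph nodes, 0.993 (0.566 to 1.71). *Cd55*, a brake on complement that naive B cells carry and not one of these 8 genes, had 0.290.

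At the lower end some differences were shared with other cells. *Gm10076* had a ratio of 0.128 in B cells and went from 877 to 179 CPM in all other cells. *Rpl35*, a ribosomal protein, had 0.242, *Ubb*, ubiquitin, 0.313, *Selenok* 0.0961, *Myl1*, a myosin light chain of fibers, 0.165, and *Capg* 0.115, and *Erh* went from 21 UMIs to 0. *Myl1* had 2.67 with all columns. Ribosomal protein genes took 23.8% of B cell UMIs in uninjured control, 16.6% at 5 dpi and 23.3% at 14 dpi, and 21.0%, 28.0% and 30.6% in hypothyroid B cells.

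Hypothyroid and control B cells were compared at 5 dpi, the day on which both diets held at least 20. Of 916 genes, 73 (7.97%) were at least 2-fold higher in hypothyroid cells and 174 (19.0%) lower, with a median ratio of 0.865. The interferon-stimulated list did not differ beyond counting error, with a ratio of 1.30 (0.989 to 1.71). Activation genes, transcription factors, class II and ribosomal protein genes are given in turn.

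*Cd69* was lower in hypothyroid B cells, with a ratio of 0.309 (0.187 to 0.490). Of 7 activation genes past the minimum, 4 were at least 2-fold lower and 0 higher, beside 19.0% and 7.97% of all 916 genes. Among the 4 were *Nr4a1*, an early target of receptor signalling, with 0.19, *Myc* with 0.46 and *Nfkbia*, an inhibitor of NF-kappaB, with 0.46. *Junb* had 0.519. Of 11 transcription factors 3 were lower and 0 higher, beside the same 19.0% and 7.97% of all genes. The 3 were *Irf8* with 0.382, *Pou2f2* with 0.445 and *Foxo1* with 0.41. The adaptor *Blnk* had 0.236 and the kinase *Lyn* 0.333. In hypothyroid cells *Ccr7* reached 50.5 CPM, against 350.2 CPM with the control diet, which gives 0.144 (0.0165 to 0.581). *Tgfb1*, an immune-restraining cytokine, had 0.216.

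*H2-Ab1* was higher in hypothyroid B cells, with 2347 CPM against 919 and a ratio of 2.55 (1.83 to 3.57). *Cd74* had a ratio of 1.60 (1.39 to 1.83) and the class II list 1.48 (1.34 to 1.63). At least 2-fold higher were 2 of 5 genes and 0 were lower, beside 7.97% and 19.0% of all 916 genes. *Igkc* had 1.55 and *Ighm* 0.590. With all columns of the tables in place of the first runs, *Cd74* had 0.992, *H2-Eb1* 0.847 and *Igkc* 0.892, so these directions depend on which columns are read. *Cd72*, an inhibitory co-receptor, had 3.24.

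The 10 genes highest in hypothyroid against control B cells at 5 dpi held 6 of ribosomal proteins. *Gm10076* had a ratio of 8.88, *Rpl35* 5.08, *Rpl39* 4.87, *Rps29* 3.57, *Rps27* 3.43, *Rps28* 3.04 and *Rpl11* 2.84. With all columns *Rps29* had 0.70, *Rps27* 0.763 and *Rps28* 0.821. *Gm10076* and the ribosomal protein genes named were also higher in the other cells of the hypothyroid library. There *Gm10076* had 3045 against 179 CPM, *Rpl39* 3368 against 1078 CPM and *Rpl11* 2832 against 1693 CPM. Whether the B cell ratios differ from this shift was not tested. Also among the 10 were *Apoe*, a lipid carrier, with 4.01 and *Ms4a4c*, of the CD20 family, with 3.53. In the other cells *Apoe* had 4814 against 633 CPM, while *Ms4a4c* had 60.8 against 70.2 CPM. Lower were the mitochondrial genes *mt-Nd1* with 0.299 and *mt-Co3* with 0.381, *Neat1*, a nuclear RNA, with 0.198, the kinase *Pim1* with 0.176, *Ddx6* with 0.222, *Ankrd11* with 0.266, *Chd4* and *Prkcd* with 0.0824 each, and *Ppp2ca*, which went from 21 UMIs to 0. With all columns *Pim1* had 1.15, *Chd4* 1.37 and *Ppp2ca* 1.1, on the other side of 1. Mitochondrial genes took 5.74% of control and 3.16% of hypothyroid B cell UMIs, and 4.32% and 2.26% in the other cells.

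Control B cells at 14 dpi differed from uninjured ones by at least 2-fold upward in 275 of 1630 genes (16.9%) and downward in 286 (17.5%), with the 2 large cells that lack immunoglobulin and *Cd74* UMIs included. Against 5 dpi, 291 of 1439 genes (20.2%) were higher and 391 (27.2%) lower. Among the 10 highest genes against 5 dpi were *Dcn*, *Vim*, *Gsn* and *Ccl2*, whose UMIs lay mostly in the mixed cells, for example 100 of the 113 of *Dcn*. Without the mixed cells 16 B cells were left, too few for a ratio, and their levels are given. *Ighm* had 2799 CPM there (2287 to 3392), *Cd74* 7860 CPM (6984 to 8815), *H2-Ab1* 2423 CPM (1948 to 2978), *Cd69* 511 CPM (308 to 799) and *Irf8* 377 CPM (206 to 632). *Cd69* and *Irf8* were thus below their 5 dpi levels, *H2-Ab1* was near its uninjured level of 2675 CPM, and *Cd74* lay between.

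In uninjured muscle some of the genes named had similar levels with the 2 diets and others did not. In hypothyroid and control B cells *Cd74* had 13199 and 12034 CPM, *Ighm* 2464 and 2548 CPM, *H2-Ab1* 3170 and 2675 CPM, *Ccr7* 396 and 353 CPM and *Cd69* 190 and 225 CPM. The intervals of each of these 5 genes overlapped. *Igkc*, with 11010 and 7252 CPM, and *Cxcr4*, with 1206 and 608 CPM, had intervals that did not overlap.

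Defining transcripts of later B cell stages had few UMIs. *Mki67*, a marker of dividing cells, had 2 UMIs in all 143 cells and *Top2a* 6, while other genes of the proliferation list that resting cells also express were found more often, *Hmgb2* in 59 cells, *Tubb5* in 47, *Pcna* in 31 and *Cenpa* in 23. Of the plasma cell genes, *Sdc1*, or CD138, had 5 UMIs, *Prdm1*, the factor that drives plasma cell fate, 12 in 3 cells, and *Xbp1* 13, while *Irf4*, which activated B cells also express, was found in 30 cells and *Mzb1*, which marginal zone B cells also express, in 43. Among germinal centre genes *Bcl6* was found in 27 cells, while *Fas* had 2 UMIs and *S1pr2* 1. *Il10* and *Cd5*, a B-1 cell marker, had 0 UMIs. Other genes listed for marginal zone and B-1 cells went both ways. *Zbtb32* had 0 UMIs and *Spn* 1, while *Plac8* was found in 96 cells, *Dtx1* in 34 and *Bhlhe41* in 8. *Tnfrsf13c*, the receptor for the survival factor BAFF, was found in 36 cells, while *Tnfsf13b*, which encodes BAFF, and *Cxcl13*, which attracts B cells, had 0.

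Genes of thyroid hormone action were barely detected. *Thra*, the main receptor gene of many tissues, had 6 UMIs in 6 cells. *Thrb*, *Rxra*, *Dio2* and *Dio3*, which encode the other receptor, its partner and deiodinases, had 0 UMIs. *Ncor1*, a corepressor of the receptors, was found in 63 cells. *Klf9*, a hormone-responsive gene, had 37 UMIs in 14 cells, with 11 of the UMIs outside the mixed cells. At 5 dpi the ratio of hypothyroid to control for *Ncor1* was 1.35 (0.619 to 2.86), and the other genes named had too few UMIs for a ratio.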

How the data were processed

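Single-cell RNA was measured in 6 libraries of TAM, each of 3 pooled mice. Per the study's methods the authors processed reads with Cell Ranger and Partek Flow against mm39. The version of Cell Ranger is not given in the sources used here. The deposited values are log2(CPM + 1), which the authors scaled per cell, and the tables were normalized separately. UMIs were recovered with the most frequent value above 0 of a cell as 1 UMI, which left 99.9% of values whole within 1%. Of 20269 columns, 9062 belong to later runs and were not used. B cells were selected by the rule given above, and no doublets were removed. The members and lists were chosen with earlier results of these data known. UMIs were summed per library, with at least 20 UMIs over both pools and 20 cells per pool for a ratio. Genes named were those of 27 lists (26 of 241 list genes are not analysed here) and, for each pair of libraries, the 10 genes each way with the largest ratio, ranked by the interval end nearest 1, among genes with at least 20 UMIs and 10 cells in the higher pool. Alternatives were all columns, other marker rules, thinning, other weights, scalings and filters, and, added after seeing the data, leaving out mixed cells and leaving ribosomal protein genes out of the scaling. Some genes of the rule are not reported here. Scripts were tested on simulated data. Python 3.11.15, NumPy 2.4.6, pandas 2.3.3, SciPy 1.17.1 and matplotlib 3.10.9 were used.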

Additional observations from a re-analysis of the deposited data

Results flagged for a closer look

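B cells were also found by the same rule in later runs of columns that are not copies of another table's cells and whose condition is unknown. The second run of the control table of 5 dpi held 17 of 2427 cells (0.700%), the second run of the control table of 14 dpi 39 of 1152 (3.39%), and the later runs of the hypothyroid table of 5 dpi 12 of 528 (2.27%) and 31 of 1626 (1.91%). A last run of the control table of 14 dpi held 0 of 1649 cells. These cells were in no comparison.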

How the results depend on the processing

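No paired analysis was possible because each group had 1 library. Leaving ribosomal protein, immunoglobulin, hemoglobin and mitochondrial genes out of the scaling kept every count within 1.5 times. Shares moved with all columns (1.61% control uninjured, 1.22% at 5 dpi, 0.968% at 14 dpi), with all 3 markers required (0.494% and 0.304% control at 5 and 14 dpi, 1.52% and 0.232% hypothyroid uninjured and at 5 dpi), with cells thinned (1.21% and 0.315% control at 5 and 14 dpi), and among *Ptprc* cells (49.2%, 1.64% and 5.12% control and 42.4%, 2.31% and 0.38% hypothyroid, uninjured, at 5 and at 14 dpi). Any value with all columns of the uninjured control table takes in 1152 cells that are also in the hypothyroid table of 14 dpi. Its 1.61% is thus not a share of uninjured control cells alone. With a minimum of 10 UMIs the counts of genes past 2-fold were 584 higher, 387 lower (control 5 dpi over uninjured), 642 higher, 688 lower (control 14 dpi over uninjured), 629 higher, 824 lower (control 14 over 5 dpi), 206 higher, 510 lower (hypothyroid over control at 5 dpi). With a minimum of 50 UMIs the counts of genes past 2-fold were 65 higher, 40 lower (control 5 dpi over uninjured), 75 higher, 67 lower (control 14 dpi over uninjured), 94 higher, 89 lower (control 14 over 5 dpi), 33 higher, 31 lower (hypothyroid over control at 5 dpi). With no minimum the counts of genes past 2-fold were 2370 higher, 2545 lower (control 5 dpi over uninjured), 3364 higher, 2460 lower (control 14 dpi over uninjured), 3477 higher, 2780 lower (control 14 over 5 dpi), 1443 higher, 3207 lower (hypothyroid over control at 5 dpi). With means of log2(CPM + 1) the counts of genes past 2-fold were 134 higher, 725 lower (control 5 dpi over uninjured), 491 lower (control 14 dpi over uninjured), 598 higher, 214 lower (control 14 over 5 dpi), 213 higher, 270 lower (hypothyroid over control at 5 dpi). With all columns the counts of genes past 2-fold were 119 lower (control 14 dpi over uninjured), 126 higher, 101 lower (hypothyroid over control at 5 dpi). With cells thinned to 1000 UMIs the counts of genes past 2-fold were 102 higher, 42 lower (control 5 dpi over uninjured), 73 lower (hypothyroid over control at 5 dpi). With no cell with a UMI of a marker of another type the counts of genes past 2-fold were 148 higher, 93 lower (control 5 dpi over uninjured). Ratios that turned were, with all columns, *Myl1* 2.67 (control 5 dpi over uninjured), *Ccr7* 1.11, *Cd74* 1.18, *H2-Eb1* 1.18, *Ifi27l2a* 0.898, *Igkc* 1.02 (control 14 over 5 dpi), *Cd74* 0.992, *Chd4* 1.37, *H2-Eb1* 0.847, *Igkc* 0.892, *Pim1* 1.15, *Ppp2ca* 1.1, *Rps27* 0.763, *Rps28* 0.821, *Rps29* 0.70, *Tubb5* 1.91 (hypothyroid over control at 5 dpi), and with the mean of CPM over cells, *Ebf1* 1.09, *Ighm* 1.03, *Klf9* 0.867, *Ms4a1* 1.14 (control 14 dpi over uninjured), *Cd74* 1.05, *Cd79a* 1.14, *Igkc* 1.05 (control 14 over 5 dpi). Differences of mean log2(CPM + 1) that turned were *Plac8* -0.71 (control 5 dpi over uninjured), *Junb* -0.26, *Klf9* -0.69 (control 14 dpi over uninjured), *Cd79a* 0.57, *Foxo1* 0.28 (control 14 over 5 dpi). The cause was not tested. Over 200 gene results, 984 values kept their direction and were not counted as moved, 139 moved and 28 turned. For differences of mean log2(CPM + 1) size was not compared, and these were kept wherever the direction held. With all columns 94 of the 200 moved, 16 turned and 90 were kept. Alternatives that left a pool under 20 cells were not run, namely all 3 markers in each ratio, no cell with a UMI of another type for 14 dpi and for the diets, and thinning or leaving out mixed cells for 14 dpi. Small pools limit depth, from 14316 to 102041 UMIs per library.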
